A study of Mus musculus with 2 samples.

Results

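Claudins, occludin and the scaffold protein ZO-1 make up the core of the tight junction, and the transcripts of 9 of their genes were compared between mouse mammary basal cells cultured with and without TNF-α. The genes were taken by name, as Cldn1, Cldn3, Cldn4, Cldn7, Cldn8, Cldn12, Cldn23, Ocln and Tjp1, and all 9 were found among the 49492 genes of the count table. Basal cells of wild-type (WT) adult female mice, 8 to 10 weeks old per the methods, had been sorted as lin-CD24+CD29hi cells and grown in 3D matrix gel with EGF and ITS for 10 days. The control library came from cells given no TNF-α and the other library from cells given mouse TNF-α, an inflammatory cytokine, at 10 ng/mL. Each condition had 1 library, so no value has a replicate check, the numbers of animals and cultures behind a library are not given in the sources used here, and no test between conditions was possible. The sort gate set the cells that were seeded, and luminal keratins were found in the colonies after culture, as given with the marker genes.

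Tight junctions seal the space between neighbouring epithelial cells near their apical side. Claudins are small proteins that span the membrane and pair with those of the neighbouring cell. The set of claudins a cell makes fixes which ions and solutes can pass. Occludin spans the membrane as well, and ZO-1, the product of Tjp1, ties claudins and occludin to the actin cytoskeleton. In the mammary gland, junctions between luminal cells close when lactation starts so that milk does not leak, and loss of Cldn3, Cldn4 and Cldn7 transcripts gave the claudin-low group of breast cancers its name.

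Cldn3 and Cldn4 are neighbours on mouse chromosome 5, and Cldn1 was the member with the lowest ratio, so the bases upstream of these 3 starts are shown. They were taken from RefSeq promoter windows on GRCm38.p6, cut to the part before the transcript start and written 5′ to 3′ on the gene's own strand. Capitals mark matches to CAGGTG (E-box) or TGANTCA (AP-1) on either strand. The Cldn3 sequence is chr5:134985964-134986213 on the plus strand, the Cldn4 sequence is chr5:134946935-134947184 on the minus strand, and the Cldn1 sequence is chr16:26371842-26372089 on the minus strand, without 2 bases that the deposited table counts as exon.
Cldn3: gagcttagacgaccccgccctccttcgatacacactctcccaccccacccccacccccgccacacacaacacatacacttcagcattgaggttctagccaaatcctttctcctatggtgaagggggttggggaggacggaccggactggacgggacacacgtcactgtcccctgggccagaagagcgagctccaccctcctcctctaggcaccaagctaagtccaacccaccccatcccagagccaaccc
Cldn4: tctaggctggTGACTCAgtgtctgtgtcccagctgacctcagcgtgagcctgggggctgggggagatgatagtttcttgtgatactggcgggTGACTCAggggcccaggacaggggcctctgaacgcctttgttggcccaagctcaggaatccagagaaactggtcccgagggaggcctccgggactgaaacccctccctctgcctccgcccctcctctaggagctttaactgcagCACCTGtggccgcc
Cldn1: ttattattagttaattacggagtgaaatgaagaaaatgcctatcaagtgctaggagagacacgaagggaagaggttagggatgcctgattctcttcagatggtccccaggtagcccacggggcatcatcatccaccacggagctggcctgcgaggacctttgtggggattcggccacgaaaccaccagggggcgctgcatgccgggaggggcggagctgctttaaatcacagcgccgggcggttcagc

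The Cldn4 sequence held 2 AP-1 matches, which start 240 and 158 bases before the transcript start, and 1 E-box match 14 bases before it. The sequences of Cldn3 and Cldn1 held no match to any of the 4 motifs searched on both strands, the others being κB (GGGAA and CC with 3 bases of any kind between them) and AACCNGTT (grainyhead). RefSeq gave 11 windows for 7 of the 9 genes, with no entry for Cldn8 and Cldn23. In the 250 bases upstream, E-box matches were present for Cldn4, Cldn7 and Ocln, in 3 of the 11 windows, beside 17.2% of the 32851 windows of all genes. For Cldn7 and Ocln the matches lay in windows of a second start inside the gene. AP-1 matches were present in 1 of 11 windows (6.75% of all windows), and κB and grainyhead matches in 0 of 11 (4.94% and 1.79% of all windows). A match to these letters is not a measured binding site.

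The control library held 44462275 counts and the TNF-α library 53487087, and TMM scaling set the second at 1.20 times the first. CPM values are counts scaled to these library sizes, and log2 ratios, TNF-α over control, were taken from CPM with a prior count of 2. TPM, the count per base of exon scaled to the same sum in each library, was used where genes are set beside each other. Intervals are exact 95% Clopper-Pearson limits and cover counting error only, because no molecular identifiers tie the reads to single molecules and the spread between cultures is not part of them. The junction genes were well counted, from 261 counts summed over both libraries for Cldn23 to 24391 for Tjp1.

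None of the 9 genes differed by more than 2-fold between the libraries. Among all 20771 genes with at least 10 counts over both libraries, 8.56% stood above 2-fold in the TNF-α library and 6.62% were lower there by over 2-fold. Among the 13609 genes with at least 200 counts, as all 9 junction genes had, the shares were 4.01% higher and 2.87% lower. At a fold of 1.5, Cldn1 and Cldn8 were lower with TNF-α and 0 genes were higher, beside 7.48% lower and 9.13% higher among the 13609 genes. The other 7 of the 9 lay within 1.5-fold, as did 83.4% of the 13609 genes. The median log2 ratio of the 9 genes was -0.01, against -0.00005 over the 13609 genes. A lower value in bulk RNA can come from fewer cells of a type or from less RNA per cell, and these cannot be told apart.

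**Figure D1:**
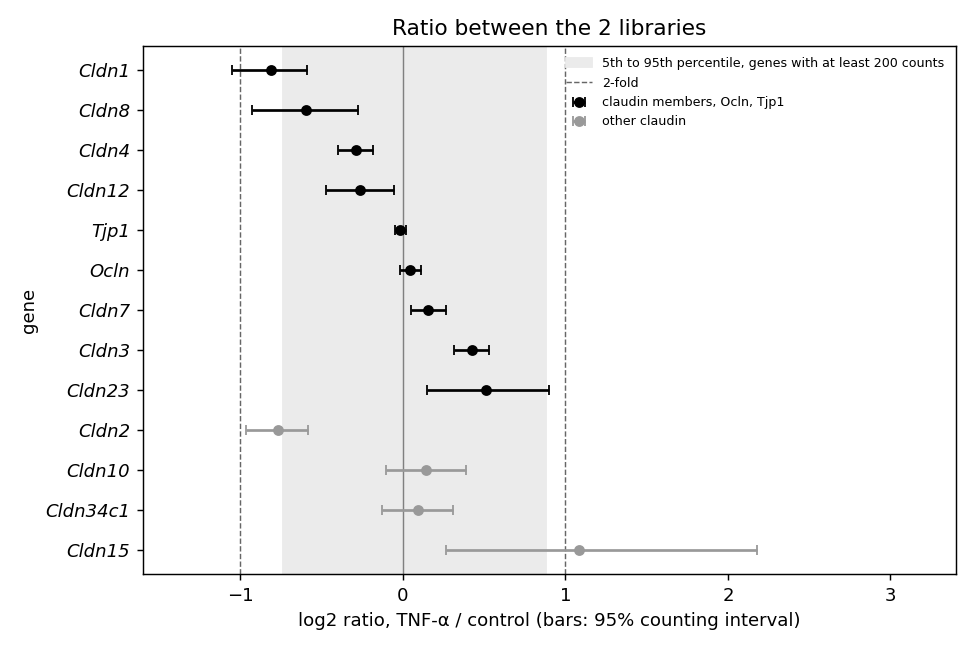
The log2 ratio, TNF-α over control (x axis), for the 9 junction genes (black) and 4 other claudins (grey), with 95% counting intervals. The 4 are Cldn2, Cldn10, Cldn34c1 and Cldn15. Cldn5, at -2.35 with 18 counts over both libraries, is not drawn. A grey band runs from the 5th to the 95th percentile of genes with at least 200 counts, and dashed lines are at 2-fold. Of the junction genes, Cldn1 at -0.81 is the one outside the band, which ends at -0.74 and 0.88.

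Among the claudins that seal the junction, Cldn3, Cldn4 and Cldn7 were the abundant ones in both libraries. Cldn3, which with Cldn4 serves as a receptor for a clostridial enterotoxin, lies on chromosome 5 of GRCm38 from 134986214 to 134987472 in a single exon. It had 1140 counts in the control and 1832 with TNF-α, which is 25.6 and 34.3 CPM, a log2 ratio of 0.42 (95% interval 0.32 to 0.53). The higher library was thus the one with TNF-α, and 86.5% of the genes with at least 200 counts had a lower ratio. Of its exon bases, 40 (3.18%) are shared with Wbscr25 on the opposite strand, a gene with 27 counts in each library.

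Cldn4 lies on the minus strand of the same chromosome from 134945119 to 134946934, also in a single exon, 39.3 kb from Cldn3. It had 1408 counts in the control and 1380 with TNF-α, or 31.6 and 25.9 CPM, a log2 ratio of -0.29 (95% interval -0.40 to -0.18). The neighbours therefore differed in opposite directions. Within a library their ratio does not depend on library scaling, and per base of exon Cldn3 stood at 1.17 times Cldn4 in the control and at 1.91 times with TNF-α. The log2 difference between these ratios was 0.71 (95% interval 0.56 to 0.87, counting error only), a comparison chosen after the values were seen.

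Cldn7, whose protein also sits along the lateral membrane and binds EpCAM, lies on chromosome 11 from 69964779 to 69967885 and had 1230 counts in the control and 1641 with TNF-α. These are 27.6 and 30.8 CPM, a log2 ratio of 0.16 (95% interval 0.05 to 0.26). Epcam itself, named after its values were seen, had 34617 and 50851 counts and a log2 ratio of 0.29. Both transcripts were slightly higher in the TNF-α library, and neither reached 1.5-fold.

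Cldn1, which the epidermis needs to hold back water, had the lowest ratio of the 9 genes. It lies on chromosome 16 from 26356642 to 26371841 in 4 exons, and had 380 counts in the control and 258 with TNF-α, or 8.53 and 4.84 CPM. Its log2 ratio was -0.81 (95% interval -1.05 to -0.59), a level 1.76-fold lower with TNF-α, and 4.22% of the genes with at least 200 counts had a lower one. Cldn8, a sealing claudin best known from the distal nephron, lies on the same chromosome from 88560828 to 88563183 in a single exon. It had 180 counts in the control and 142 with TNF-α, or 4.04 and 2.66 CPM, a log2 ratio of -0.59 (95% interval -0.93 to -0.28). Both were scarce next to Cldn3, Cldn4 and Cldn7 in either library.

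Cldn12, an unusual claudin that lacks the tail by which others bind ZO-1, lies on chromosome 5 from 5489537 to 5514958. It had 376 counts in the control and 375 with TNF-α, or 8.44 and 7.03 CPM, a log2 ratio of -0.26 (95% interval -0.47 to -0.05). Nearly equal counts gave a lower CPM with TNF-α because that library was the deeper. Cldn23, on chromosome 8 from 35824712 to 35826559, was the least counted member, with 96 counts in the control and 165 with TNF-α, or 2.15 and 3.09 CPM. Its log2 ratio of 0.51 was the highest of the 9, with the widest interval (0.15 to 0.90), and 89.3% of the genes with at least 200 counts had a lower ratio.

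Ocln and Tjp1 differed least between the libraries. Ocln, on chromosome 13 from 100496507 to 100552718, had 3357 counts in the control and 4151 with TNF-α, or 75.3 and 77.8 CPM, a log2 ratio of 0.05 (95% interval -0.02 to 0.11). Tjp1, on chromosome 7 from 65296165 to 65527781, had 11160 and 13231 counts, or 250.4 and 248.0 CPM, a log2 ratio of -0.01 (95% interval -0.05 to 0.02). Both intervals contained 0 and were the narrowest of the 9. The ratio of Ocln to Tjp1 per base of exon was 0.557 in the control and 0.580 with TNF-α.

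Per base of exon, the 9 genes fell into an abundant and a scarce group in both libraries. Tjp1 was highest, at 90.5 TPM in the control and 86.8 TPM with TNF-α, and Cldn3 was next, at 57.3 and 74.5 TPM. Ocln followed at 50.3 and 50.4 TPM. In the control, Cldn4 at 49.1 TPM could not be told from Ocln by counting error (intervals 46.6 to 51.7 and 48.7 to 52.1), and Cldn7 stood below at 40.0 TPM. With TNF-α, Cldn7 at 43.2 TPM stood above Cldn4 at 38.9 TPM, with intervals from 41.1 to 45.3 and from 36.9 to 41.0. These intervals nearly touch, and the order is not secure if read pairs were counted by both ends, which would widen them. Cldn1, Cldn12, Cldn8 and Cldn23 lay between 3.29 and 7.41 TPM in the control and between 3.09 and 4.57 TPM with TNF-α. Within this scarce group Cldn23 was last in the control and first with TNF-α, where its interval of 3.90 to 5.33 TPM overlapped those of Cldn12 and Cldn1.

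**Figure D2:**
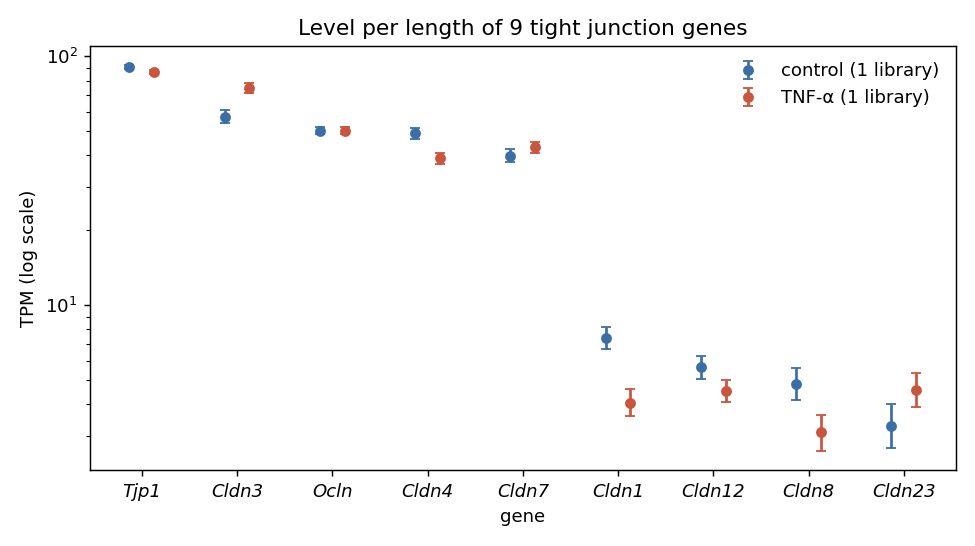
TPM on a log axis for each of the 9 genes in the control library (blue) and the TNF-α library (red), with 95% counting intervals as bars. Tjp1, Cldn3, Ocln, Cldn4 and Cldn7 lie between 38.9 and 90.5 TPM, and the other 4 genes between 3.09 and 7.41 TPM.

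The claudin make-up of the libraries was then described over the 35 claudin genes of the table. Their counts summed to 5977 in the control and 6961 with TNF-α, which is 134.1 and 130.5 CPM, so the sum was nearly level. Cldn3, Cldn4 and Cldn7 together made 76.7% of the summed claudin level per base in the control and 81.9% with TNF-α. The share of Cldn3 was 30.0% in the control (95% interval 28.7 to 31.4) and 39.0% with TNF-α (37.7 to 40.3). Cldn4 had 25.7% (24.6 to 26.9) and 20.4% (19.4 to 21.3), and Cldn7 had 20.9% and 22.6%. Cldn1 had 3.88% in the control and 2.13% with TNF-α. Cldn2, which is outside the 9 genes, had 5.41% in the control and 3.06% with TNF-α. The claudin sum thus held more Cldn3 and less Cldn4, Cldn2 and Cldn1 in the TNF-α library.

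**Figure D3:**
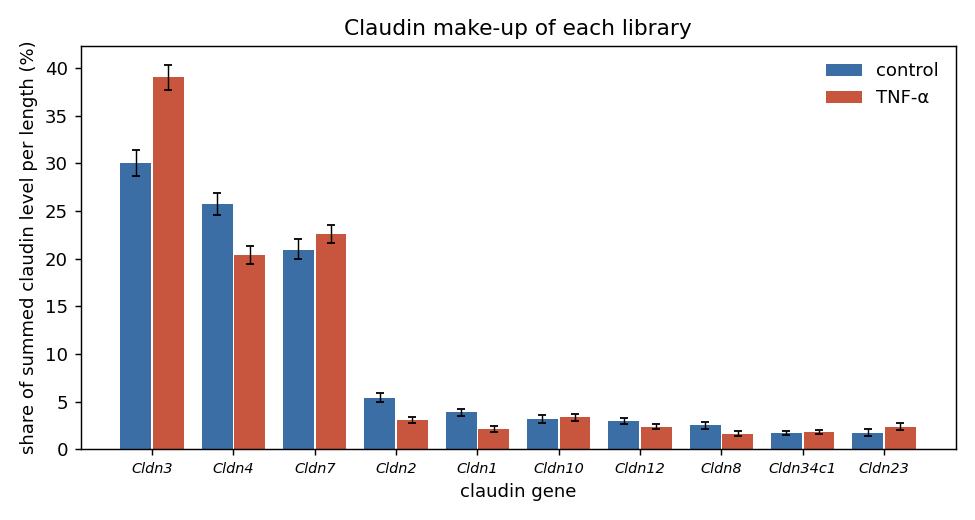
Share of each of 10 claudins in the claudin level summed per base of exon (y axis, percent) in the control (blue) and TNF-α (red) libraries, with 95% counting intervals. Cldn3 is at 30.0% and 39.0%, and Cldn4 is at 25.7% and 20.4%.

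Outside the 9 genes, 28 claudin genes are in the table, pseudogenes included, and 15 of them had 0 counts in both libraries. Of the 8 with at least 10 counts, 3 were higher and 5 lower with TNF-α, and their median log2 ratio was -0.38 against 0.004 over the 20771 genes. Cldn2, which forms a channel for cations and water, had 542 counts in the control and 380 with TNF-α, a log2 ratio of -0.77 (95% interval -0.97 to -0.58). At 10.3 TPM in the control and 5.85 TPM with TNF-α it stood above Cldn1, which was at 7.41 and 4.07 TPM. The ion channel claudin Cldn10 had 246 and 325 counts and a log2 ratio of 0.14 (95% limits -0.10 to 0.39). Cldn34c1 had 308 and 393 counts and a log2 ratio of 0.09 (95% limits -0.13 to 0.31), and belongs to a family of close copies on the X chromosome, so its count is uncertain.

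Of these 8 claudins, 1 was past 2-fold upward and 1 downward, on few counts, beside 8.56% and 6.62% of the 20771 genes, and both were named after their values were seen. Cldn15, another cation channel claudin, had 14 counts in the control and 38 with TNF-α, a log2 ratio of 1.08 (95% interval 0.26 to 2.18). Cldn5, the claudin of endothelial cells, had 16 counts and 2, a log2 ratio of -2.35 (95% interval -6.42 to -1.17). Endothelial markers numbered 5 with Cldn5, of which 4 were lower and 1 higher with TNF-α, with Pecam1 at -0.29, Kdr at -0.30, Tek at -0.18 and Cdh5 at 0.22, and the part of endothelial cells in the ratio of Cldn5 was not tested. Cldn16, Cldn9, Cldn13, Cldn24 and Cldn18 were among the genes with 0 counts, for which 3 counts, or 0.0673 CPM in the control and 0.0562 CPM with TNF-α, was taken as the floor that a count of 0 allows, a one-sided limit that is lower than the upper end of the intervals used above.

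Other proteins of the tight junction were covered by a list of 52 genes for scaffolds, adhesion molecules, polarity proteins and regulators. Of the 51 genes with at least 10 counts, 25 were higher and 26 lower with TNF-α, the median log2 ratio was -0.004, and 0 passed 2-fold upward and 1 downward, beside 8.56% and 6.62% of the 20771 genes. That gene was Igsf5, which encodes the junctional adhesion molecule JAM4. It had 14696 counts in the control and 3051 with TNF-α, or 336.4 and 56.5 TPM, a log2 ratio of -2.53 (95% interval -2.58 to -2.47). At 336.4 TPM in the control, Igsf5 stood above Tjp1, and with TNF-α it stood below it. Whether the exons of Igsf5 overlap those of another gene was not checked.

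The next lowest of the list were Wnk4, a kinase that phosphorylates claudins, at -0.86 (1001 and 661 counts) and the scaffold gene Magi2 at -0.81 (298 and 202 counts). The highest was Cxadr, the coxsackievirus and adenovirus receptor and a junctional adhesion protein, with 8528 counts in the control and 18026 with TNF-α, a log2 ratio of 0.82 (95% interval 0.78 to 0.86). Pard6b, a polarity gene, and Nectin3, an adhesion gene, followed at 0.45 and 0.42 among the genes with at least 200 counts. Of the 47 list genes with at least 200 counts, 41 lay within 1.5-fold, 1 was higher and 5 were lower. Of the proteins in the junctional plaque, Cgn, which encodes cingulin, was at -0.004, and Afdn, which encodes afadin, was at 0.03 (both were named after their values were seen).

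Transcription factors that act on epithelial junction genes were described as a list of 15. All 15 had at least 10 counts, 7 were higher and 8 lower with TNF-α, and the median log2 ratio was -0.01. Past 2-fold were 2 factors, Zeb2 and the sparsely counted Twist2 (10 counts in the control and 32 with TNF-α, named after its values were seen), both higher, beside 8.56% of the 20771 genes. Zeb2, a repressor that binds E-boxes in epithelial genes, had 616 counts in the control and 1507 with TNF-α, a log2 ratio of 1.03 (95% interval 0.89 to 1.17). Its relative Zeb1 had 420 and 948 counts and a log2 ratio of 0.91 (95% limits 0.75 to 1.08). The ratio of Zeb2 was the only one past 2-fold among the 12 factors with at least 200 counts, beside 4.01% higher and 2.87% lower over the 13609 genes. At 1.96 and 3.87 TPM for Zeb2 and 2.63 and 4.80 TPM for Zeb1, both stood under Snai2, at 47.8 and 34.9 TPM.

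Snai2, an E-box repressor of basal cells, was lower with TNF-α by a log2 ratio of -0.40. Grhl1, of the grainyhead family that activates epithelial genes, was the lowest of the list at -0.62 (4218 and 3291 counts), and Klf5 was at -0.47. After Zeb2 and Zeb1, the highest factor with at least 200 counts was Ovol1 at 0.10. Grhl2, the family member known to act on Cldn4, had a log2 ratio of -0.01 and was named after its value was seen.

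Markers were read to describe the cells behind these values. Markers of basal cells, the cells named in the sample titles, were abundant. The 12 genes summed to 13404 CPM in the control and 12495 CPM with TNF-α, and they had a median log2 ratio of -0.03. Of these, Oxtr, the oxytocin receptor of myoepithelial cells, was past 2-fold at -1.19, beside 2.87% lower over the 13609 genes. The next lowest were Cnn1 at -0.74 and Myh11 at -0.52. Procr, Vim and Itga6 were the highest, at 0.44, 0.33 and 0.26. The basal keratin gene Krt14, named after its values were seen, had 229766 and 259922 counts.

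Luminal markers, which mark the cells where Cldn3, Cldn4 and Cldn7 are typically high, were also present. The luminal keratin genes Krt8, Krt18, Krt19 and Krt7 stood at 1213, 629, 993 and 227 CPM in the control. With TNF-α they stood at 1132, 517, 556 and 151 CPM. Krt18, Krt19 and Krt7 were named after their values were seen. The 16 luminal marker genes summed to 4061 CPM in the control and 2881 CPM with TNF-α, and the median log2 ratio was -0.61. Of them 13 were lower, while 50.6% of the 20771 genes had a ratio above 0. Pgr, Esr1 and Prlr, receptors for progesterone, oestrogen and prolactin, were past 2-fold at -1.54, -1.48 and -1.15, beside 6.62% lower over the 20771 genes. Of the 15 genes with at least 200 counts, Cited1, Ly6a and Krt8 were the highest at 0.56, 0.44 and -0.10. Cldn3 and Cldn7 thus had ratios above 0 in a library with less luminal marker RNA, while Cldn4 had a ratio below 0. The part of the luminal cells in these values was not tested.

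Genes of squamous differentiation showed the largest differences of the lists described here. All 13 of the 15 list genes that had at least 10 counts were lower with TNF-α. Over the 20771 genes, 50.6% had a ratio above 0. The intervals of Tgm3, Lor and Krt13, with 13, 27 and 41 counts over both libraries, contained 0. The list summed to 3031 CPM in the control and 2411 CPM with TNF-α. Most of that sum was Krt6a, at 1711 and 1510 CPM, and Krt16, at 918 and 833 CPM. The sum therefore says little about the other genes of the list. Past 2-fold were 6 genes, beside 6.62% lower over the 20771 genes. These were Krt10 at -4.62, Flg at -3.95, Krt1 at -3.61, Dsc1 at -3.39, Ivl at -2.53 and Dsg1a at -1.57, and the stress keratins Krt16 and Krt6a lay at -0.14 and -0.18, and Tgm1, a transglutaminase gene, at -0.55. Cldn1, which is made throughout the epidermis, was lower in the same library at -0.81, and Cldn23 was higher. The part of squamous cells in the ratio of Cldn1 was not tested.

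RNA of other cell types was low or nearly level. Leukocyte markers summed to 8.23 CPM in the control and 6.54 CPM with TNF-α over 8 genes, with Cd3e at 0 counts in both and Lyz2 at a log2 ratio of -0.32. Endothelial markers summed to 7.43 and 6.71 CPM over 5 genes, Cldn5 included. Fibroblast markers summed to 499.2 and 486.2 CPM over 6 genes. Dcn was past 2-fold at 1.39, beside 8.56% higher over the 20771 genes. Col1a2 and Col1a1 were at 0.15 and 0.07, Pdgfra at -0.02 and Col3a1 lowest at -0.66. The part of these cell types in the junction gene ratios was not tested.

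**Figure D4:**
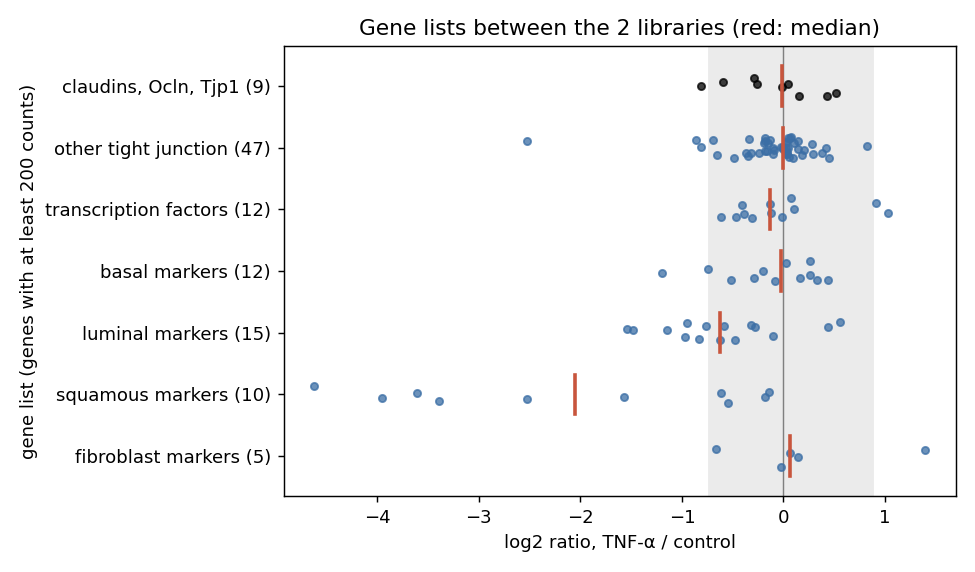
The log2 ratio, TNF-α over control (x axis), of each gene with at least 200 counts in 7 lists (y axis, number of genes in brackets), with the list median in red and the 5th to 95th percentile of all such genes in grey. The 9 junction genes lie between -0.81 and 0.51 around a median of -0.01, while squamous markers reach -4.62 and the outlying tight junction gene at -2.53 is Igsf5.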

How the data were processed

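Bulk RNA-seq of 1 control and 1 TNF-α library was used. The authors deposited 1 table of raw read counts per gene with exon coordinates and summed exon length, not normalized. The submitters' processing notes name GRCm38 and mm10. The aligner, counter, strand setting and read filters are not given in the sources used here. Of the 47240 gene names shared with GENCODE M21, 90.8% had the same coordinates, the 9 junction genes included. The submitters' text calls the experiment a microarray, while the file holds sequencing counts.

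From the counts, TMM sizes were computed with edgeR 4.0.16 (R 4.3.3), and log2 ratios with a prior count of 2 in Python 3.11.15 with pandas 2.3.3, scipy 1.17.1 and numpy 2.4.6. No quasi-likelihood fit is possible with 1 library per group, so calls rest on fold alone and no p-value is given. A count of 10 is worth 0.224 CPM in the control and 0.187 CPM with TNF-α. Ratios and intervals were run on simulated Poisson counts of genes with at least 200 counts, with the library sizes known. Such counts hold no read pairs counted by both ends. The run thus checks the code and cannot show that the intervals are wide enough here. Gene lists, members and the rule for named genes were chosen with earlier results of these data known. The rule takes the 9 genes, other claudins with at least 200 counts, the 3 highest and 3 lowest well counted genes of each list and those past 2-fold, and the neighbours of each gene. Alternatives were total counts, DESeq2 1.42.0 size factors, upper quartile scaling, filters of 1 and 200 counts, prior counts of 0.5 and 5, counts divided by 2, thinning to the shallower library, folds of 1.5 and 3, and shares without length scaling. A lowess correction on GC content and length (statsmodels 0.14.6, span 0.3), chosen after seeing the data, used GENCODE transcripts. Promoter windows came from RefSeq (GRCm38.p6), and figures were drawn with matplotlib 3.10.9.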

Additional observations from a re-analysis of the deposited data

How the results depend on the processing

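No paired analysis was possible because there was a single library on each side, and for the same reason none was left out in turn. Each ratio of the 9 junction genes was read under 10 alternatives, of which the filters of 1 and 200 counts cannot change a ratio. Under the others, all were recomputed and stayed within their counting intervals. For most of them this is a weak check. The scalings set the TNF-α library at 1.19 to 1.20 times the control. The prior counts, halving and thinning reuse the same counts. The ratio of Cldn1 lay between -0.86 and -0.80, that of Cldn3 between 0.42 and 0.48, that of Cldn4 between -0.30 and -0.26, and that of Cldn8 between -0.67 and -0.50. Tjp1, whose interval contains 0, was at 0.01 once corrected for GC content and length.

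The filters could not change the count of 0 junction genes past 2-fold, since all 9 had at least 200 counts. This count held under every scaling, prior count and depth run, and at a fold of 1.5 it was 2 lower. At that fold the other tight junction genes gave 1 higher (0 at 2-fold) and 5 lower (1), the other claudins 3 lower (1) and the transcription factors 1 lower (0). With at least 200 counts the other claudins gave 0 in each direction and the transcription factors 1 higher (2). The 1 other claudin higher, Cldn15, was lost with a prior count of 5 or a fold of 3. The 1 lower, Cldn5, was lost with counts divided by 2, and without a filter there were 3 lower. A fold of 3 left 0 transcription factors higher. Over all genes, 1777 were higher and 1375 lower at the main setting, 2679 and 2996 without a filter, 546 and 390 with at least 200 counts, 3210 and 2846 at a fold of 1.5, and 875 and 587 at a fold of 3. Under the filters and folds, more or fewer genes were counted or the threshold was moved. The prior count of 5 pulled the ratio of Cldn15 under 2-fold. Cldn5 fell under the filter of 10 counts once counts were divided by 2. Of 28 recomputed claudin shares, 18 moved outside their counting intervals, as length scaling and the choice of genes change the sum. Without length scaling, the control had Cldn4 at 23.6%, Cldn7 at 20.6% and Cldn3 at 19.1%, so Cldn3 was not first there. With TNF-α, Cldn3 was at 26.3%, Cldn7 at 23.6% and Cldn4 at 19.8%.

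Depth limits Cldn23, Cldn8 and the scarce claudins most. Even counts are in excess among rare genes, with 2172 genes at 2 counts and 618 at 1 count in the control, the pattern of read pairs counted by both ends. Intervals would then be wider. Of the ratio intervals without 0, those of Cldn12 and Cldn7 come closest to it, at -0.05 and 0.05, and are the least secure. The longest transcript had a GC content of 62.7% for Cldn3 and 39.0% for Cldn1, and their ratios once corrected for GC content and length were 0.48 and -0.86.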

Other observations

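The nearest genes with at least 200 counts on either side of the junction genes, which can be far away, differed from them in several places. Il1rap, which encodes a co-receptor for interleukin-1 and is the nearest well counted gene after Cldn1 at 209.9 kb, had 1164 counts in the control and 3852 with TNF-α, a log2 ratio of 1.47 (95% interval 1.37 to 1.56), while Cldn1 was at -0.81. P3h2, 250.9 kb away on the other side of Cldn1, was at 0.42. Wbscr27, 2.48 kb from Cldn4, was at -0.27 beside -0.29 for Cldn4. Elp5, 0.337 kb from Cldn7, was at 0.39 and Slc2a4, which encodes a glucose transporter, at 0.17, beside 0.16 for Cldn7. D8Ertd82e, the nearest well counted gene after Cldn23 at 268.3 kb, was at -0.76, and Gm45381, 67.2 kb before it, at 0.55.

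Marveld2, which encodes tricellulin of the corners where 3 cells meet, is the nearest well counted gene after Ocln, 43.2 kb away. It had 1257 counts in the control and 1404 with TNF-α, a log2 ratio of -0.10 (95% interval -0.21 to 0.01), and Gtf2h2, 3.93 kb away on the other side of Ocln, was at 0.29. Cdk14 and Gtpbp10 on either side of Cldn12 were at 0.51 and 0.19, Bach1 and Tiam1, 827.5 and 1224 kb from Cldn8, at 0.32 and -0.39, and Ndnl2 and Tarsl2, 423.2 and 117.1 kb from Tjp1, at -0.13 and -0.37. Morc4 and Ripply1 beside Cldn2 were at -0.02 and -0.20. Dzip1, 0.031 kb from Cldn10, was at -0.43, and Abcc4 on its other side at 0.37. Gm43372 beside Cldn3 was at 0.12. Nap1l3 and Diaph2, the nearest such genes to Cldn34c1 but 706.1 and 6561 kb from it, were at -0.16 and -0.17.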
